A study of Mus musculus with 34 samples.

Results

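The genes encoding the proteins of the cytosolic ribosome were followed in mouse T cells before and after stimulation, in wild-type (WT) cells and in 5 mutant genotypes. Members were all protein-coding genes with an Rpl or Rps symbol followed by a digit, plus Rplp0, Rplp1, Rplp2 and Rpsa, that had a mean of at least 10 counts per M counts of the library (CPM; M, mega). Kinase genes and pseudogenes were left out by name. Of 86 candidates among the 48526 genes in the table, 81 passed, 49 with Rpl symbols (large subunit) and 32 with Rps symbols (small subunit). The 4 lowest members were Rps27l at a mean of 47.4 CPM, Rpl7l1 at 76.4, Rpl22l1 at 103 and Rpl36al at 154, and all 4 are variant or paralogous forms of another member. Below the threshold were Rps19bp1 at 8.93 CPM, Rps27rt at 8.85, Rpl39l at 0.492, Rpl3l at 0.011 and Rpl10l at 0. All 81 members passed the filter on low counts.

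The cells were pan T cells isolated by negative selection from the spleens of C57BL/6 mice aged 6-12 weeks. They were sequenced unstimulated (WT, n = 2) or after stimulation for 24 h or 72 h through CD3 and CD28 by antibodies, in recombinant IL-2. At each time there were 2 WT libraries, 3 of Ars2 KO (loss of the RNA cap-associated protein ARS2, gene Srrt), 2 labelled CD28 KO, and 3 each of DKI, CD28 AYAA and CD28 Y170F, 34 libraries in 13 groups. CD28 is the main costimulatory receptor of T cells. AYAA names a change of a proline motif in its cytoplasmic tail and Y170F a change of a tyrosine motif, and the series' text places DKI among the CD28 mutants without naming the changes it carries. How Ars2 was deleted, and in which cells, is not given in the sources used here. Replicates are called biological in the series' text, and the libraries of a group carry replicate numbers.

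A ribosome has a small subunit, which decodes messenger RNA, and a large subunit, which joins amino acids. Most ribosomal proteins are present once per ribosome, and cells make the set together. Many of their messenger RNAs begin with a cytosine followed by a run of pyrimidines, the 5′ terminal oligopyrimidine (TOP) motif, through which mTORC1 and the protein LARP1 control their translation. Resting T cells hold few ribosomes and produce many more after activation. Messenger RNA levels, which were measured here, carry no information on translation.

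The start sites are shown first, because members with similar starts lay at opposite ends of the response to stimulation described further on. RefSeq promoters (GRCm38.p6, 250 bases before to 50 after each start) were found for 61 of the 81 members. A start with C followed by at least 4 more pyrimidines was present in 13 of the 61 (21.3%), and in 3.0% of 26964 other genes. This sorting rests on the exact base annotated as the start, and the accuracy of the starts was not tested. Rpl27a, Rpl7a and Rps24 had runs of 16, 7 and 6 pyrimidines that began with T, and were not counted. Members without such a start are therefore not shown to lack a TOP motif. The windows below run from 15 bases before the start to 15 from it on, in the direction of transcription, with the initial pyrimidine run in capitals. At 24 h in WT 9 of the 13 fell and 2 rose, beside 32 and 7 of the 48 without such a start. Of all genes 27.2% fell and 24.2% rose in that comparison. The 7 printed were picked with these values known: Rpl35a, Rps27, Rps15a, Rplp2 and Rps10 fell, Rps6 fell by less, and Rpl28 rose. Of the 6 not printed, Rpl35 rose by 0.39, Rpl15 and Rpl14 had values of 0.16 and 0.10 and were not called, and Rps21, Rps18 and Rpl38 fell by 0.67, 0.40 and 0.28 on the log2 scale.
Rpl35a (chr16:33056467-33056496, + strand): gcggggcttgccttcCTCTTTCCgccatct
Rps27 (chr3:90213634-90213663, - strand): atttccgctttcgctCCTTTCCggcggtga
Rps15a (chr7:118116133-118116162, - strand): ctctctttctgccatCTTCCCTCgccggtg
Rplp2 (chr7:141447636-141447665, + strand): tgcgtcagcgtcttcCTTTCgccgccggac
Rps10 (chr17:27635230-27635259, - strand): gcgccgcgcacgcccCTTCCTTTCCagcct
Rps6 (chr4:86857353-86857382, - strand): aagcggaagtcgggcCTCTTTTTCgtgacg
Rpl28 (chr7:4792950-4792979, + strand): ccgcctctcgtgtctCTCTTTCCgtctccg
The initial run at the printed starts was the same in Rpl35a and Rpl28, CTCTTTCC, although their levels moved in opposite directions. Rpl35a also had annotated starts with runs of 1 and 0, which are not printed, and which start the cells used was not tested. The median log2 fold change at 24 h in WT was -0.40 in the 13 members with such a start and -0.30 in the 48 without. At 24 h in the libraries labelled CD28 KO against WT it was -0.32 and -0.34.

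The letters CCGGAAG, on either strand, were in the promoters of 25 of the 61 members (41.0%) and of 9.9% of other genes. The 2 other motifs searched on both strands, neither of which overlaps it, differed less. CACGTG was in 9.8% of members and 8.1% of other genes, and TATAAA in 11.5% and 15.7%. The windows of 4 members are given with the motif in capitals, shown as CTTCCGG where it lies on the opposite strand. Rps2 and Rps26 rose and Rpsa and Rps10 fell at 24 h in WT.
Rps2 (chr17:24719924-24719954, + strand): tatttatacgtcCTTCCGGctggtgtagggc
Rps26 (chr10:128626702-128626732, - strand): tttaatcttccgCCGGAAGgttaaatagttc
Rpsa (chr9:120127566-120127596, + strand): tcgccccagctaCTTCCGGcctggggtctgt
Rps10 (chr17:27635255-27635285, - strand): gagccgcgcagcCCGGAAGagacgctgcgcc
These matches describe the letters in the windows and are not evidence of a bound factor.

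Depth ranged from 8.3 to 47.8 M counts per library. All 6 DKI libraries and WT number 4 at both times were under 12 M, so depth moved with the DKI genotype. Srrt was 244 CPM in WT number 1 and 131 in WT number 4 at 24 h, against 33.5 to 64.8 in Ars2 KO. At 72 h it was 245 and 145 in WT against 105.5 to 146 in Ars2 KO, where the ranges overlapped. Cd28 was not lower in the libraries labelled CD28 KO at 24 h, at 476 and 482 CPM against 387 and 411 in WT, and was lower at 72 h, at 212 and 214 against 474 and 587. A count over the whole gene does not test a deletion of part of it. The T cell markers summed to 2665 to 4296 CPM over all groups. The unstimulated libraries stood apart: the 12 B cell markers summed to 2112 and 2177 CPM against 212 and 337 in WT at 24 h, and the 13 myeloid markers to 270 and 271 against 9.60 and 14.2. Mitochondrial rRNA accounted for 17.2 to 17.5% of their counts and at most 0.18% in the other libraries. Xist exceeded Y-linked counts in both, and in none of the stimulated WT or DKI libraries. At each time it did so in 2 of 3 Ars2 KO, 1 of 2 labelled CD28 KO, 1 of 3 AYAA and 1 of 3 Y170F libraries, and the part of this in the genotype comparisons was not tested.

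The 81 genes together made up 6.70 and 6.75% of TMM-scaled counts in unstimulated WT cells. TMM is a scaling that sets the bulk of genes equal between libraries. The sum was 5.42 and 5.56% in WT at 24 h and 5.52 and 5.60% at 72 h, so all 4 stimulated WT libraries were below both unstimulated ones. In the libraries labelled CD28 KO it was 4.09 and 4.59% at 24 h and 4.76 and 4.89% at 72 h, with this scaling the lowest of all groups at each time. The other genotypes lay between 4.91 and 6.13%. In bulk samples, fewer cells of a type and less RNA per cell cannot be told apart. The fall in WT at 24 h depended on the scaling, and that at 72 h kept its direction. As a share of unscaled total counts the sum was 5.75 and 5.57% in unstimulated WT cells, 5.85 and 5.65% in WT at 24 h, which overlapped, and 5.17 and 5.26% at 72 h, below both. As a share of nuclear protein-coding counts it was 9.33 and 9.26% unstimulated, 6.85 and 6.79% at 24 h and 6.18 and 6.47% at 72 h, lower at both times. The lowest place of the labelled CD28 KO at 72 h also depended on the scaling. Its sum was 4.85 and 5.02% of unscaled total counts, against 4.81 to 5.24% in CD28 AYAA. Of nuclear protein-coding counts it was 5.77 and 6.02%, against 5.69 to 6.03%, so the 2 groups overlapped in both.

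**Figure D1:**
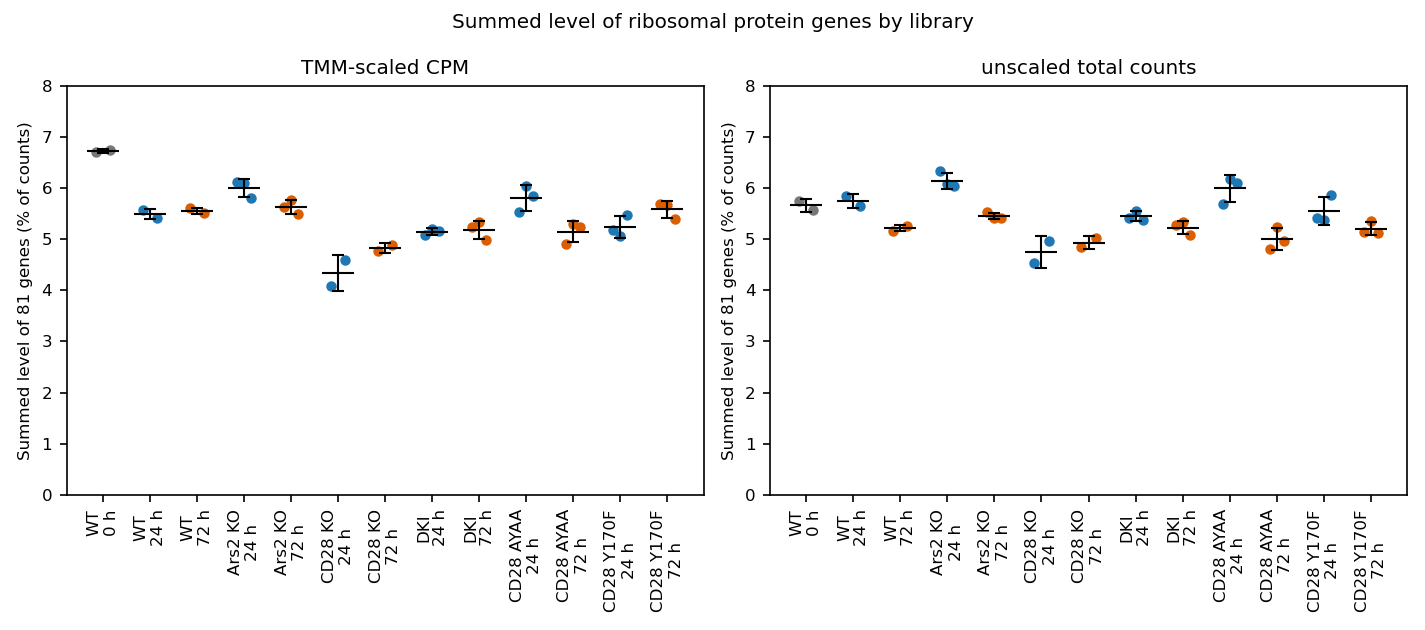
Summed level of the 81 ribosomal protein genes as a percent of counts (y axis) in each library, by group (x axis), with TMM scaling on the left and unscaled totals on the right; points are libraries (grey unstimulated, blue 24 h, orange 72 h), bars the mean and SD. On the left the unstimulated libraries (6.70 and 6.75%) lie above all others, and on the right they lie within the range of 4.53 to 6.33% of all stimulated groups, overlapping WT at 24 h (5.65 and 5.85%) and above WT at 72 h (5.17 and 5.26%).

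Per kilobase of the principal annotated messenger RNA (GENCODE M21), members ranged widely. Rps27, a small-subunit protein with a zinc finger, was highest at 1642 CPM per kb, followed by Rps18 at 1473 and Rpl23a at 1443. Lowest were Rpl7l1 at 29.2 CPM per kb, Rps27l at 95.6 and Rpl22 at 110.5. These values rest on the annotated lengths, which had a median of 886 bases and reached 5179 in Rps15a. Which transcripts the cells made was not tested. Within the summed level, single members kept their share closely: the ratio of the highest to the lowest group share over the 12 stimulated groups had a median of 1.23 and was under 1.5 for 71 of 81. It reached 2 for 3 members, Rps27l at 4.38, Rpl7l1 at 2.24 and Rps27 at 2.17, and Rps2 followed at 1.92. The balance of the subunits also moved little: Rps genes made 43.0 to 43.2% of the sum unstimulated and 40.4 to 42.6% stimulated.

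**Figure D2:**
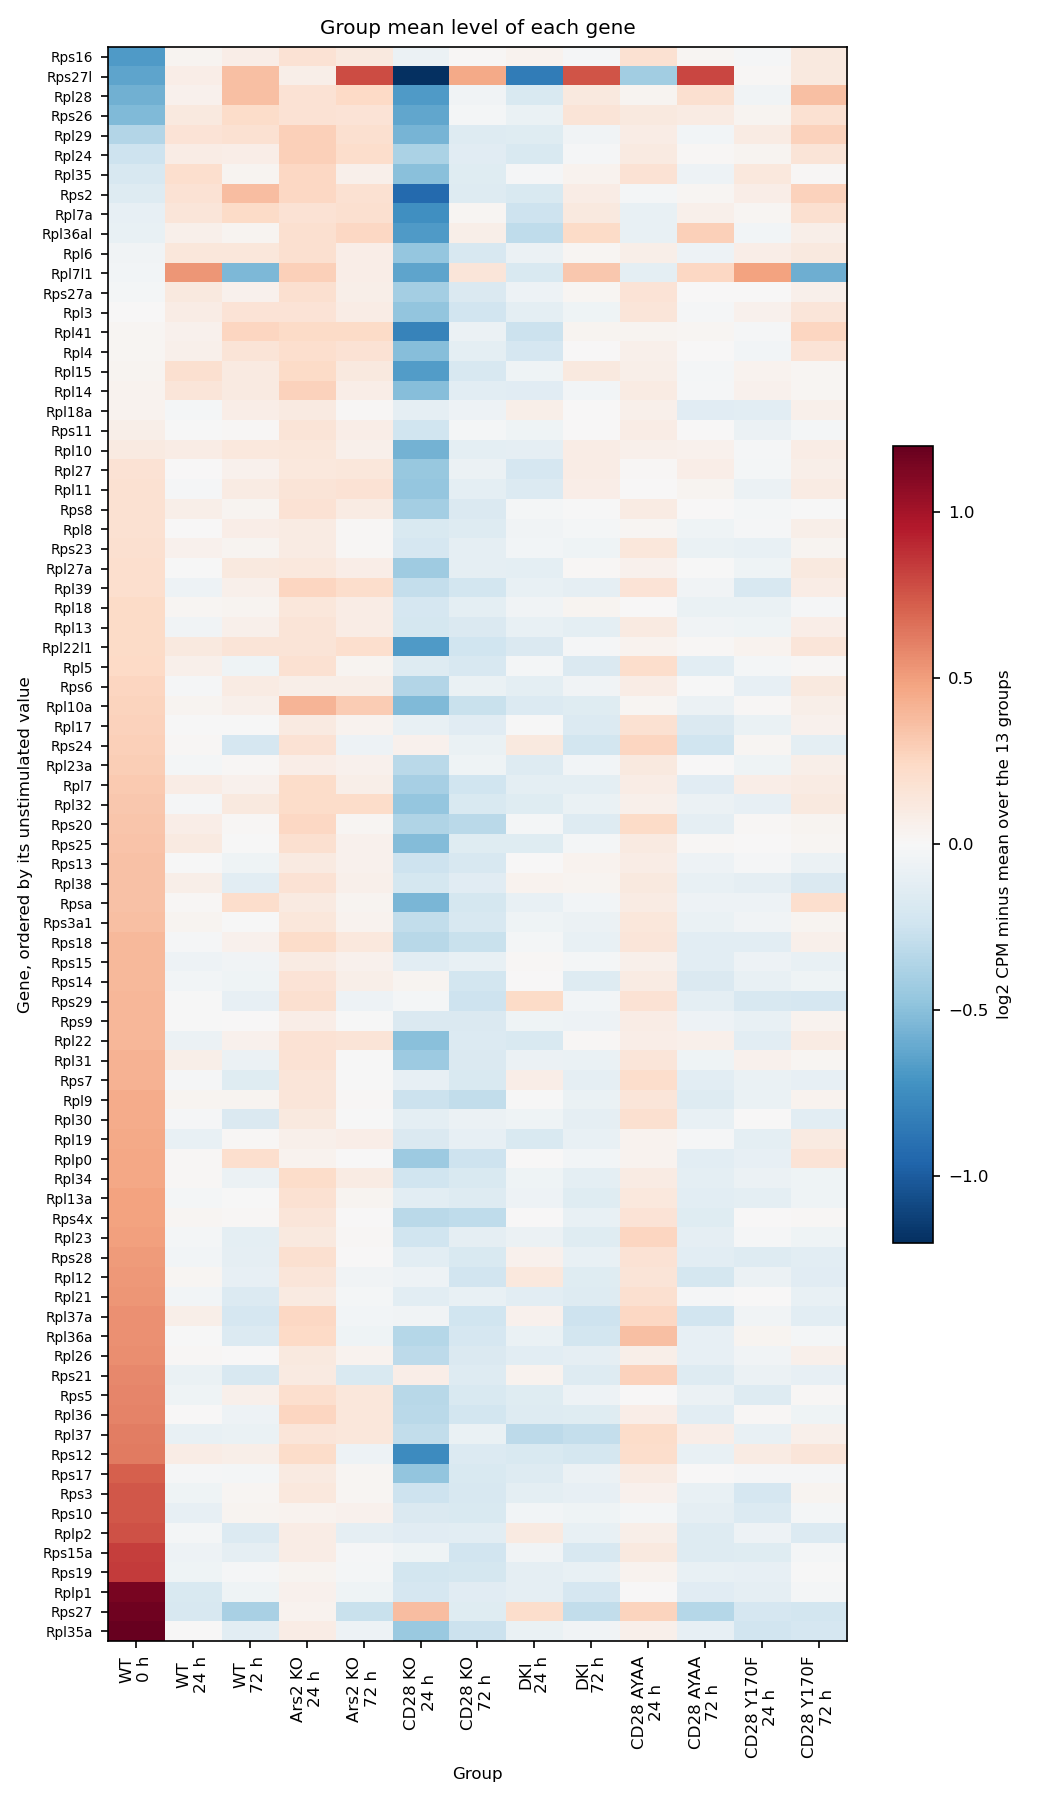
Mean level of each of the 81 genes (rows) in the 13 groups (columns), as log2 CPM minus that gene's mean over the 13 groups; red is higher and blue lower, and values past the ends of the scale take its end colours. Rows are ordered by the unstimulated value, from Rps16, Rps27l and Rpl28 at the top to Rplp1, Rps27 and Rpl35a at the bottom, and the column labelled CD28 KO at 24 h is blue for most genes, with Rps27 among the exceptions.

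Stimulation of WT cells for 24 h was compared with unstimulated cells to ask how the set responds to activation. Of the 81 members 54 fell and 10 rose (edgeR quasi-likelihood test, adjusted p under 0.05), with a median log2 fold change of -0.31. Of all 18292 genes tested 51.3% were called, 24.2% higher and 27.2% lower, with a median of -0.02, and of 2008 other genes of at least 100 CPM on average 50.6% rose and 17.4% fell. The fallers were led by 3 genes. Rpl35a, a large-subunit protein, was 543 and 529 CPM unstimulated and 196 and 214 at 24 h, which is -1.39 ± 0.12 on the log2 scale (± SE, adjusted p = 6.8e-10). Rps27 was 1250.0 and 1235 CPM unstimulated and 476 and 495 at 24 h (-1.36 ± 0.14, adjusted p = 2e-08). Rplp1, one of the acidic proteins of the ribosomal stalk that recruits elongation factors, went from 1217 and 1166 to 488 and 467 CPM (-1.32 ± 0.09, adjusted p = 7.6e-12). In each of the 3 the groups lay far apart, and their levels stayed between 136 and 758 CPM in all 32 stimulated libraries. Of all genes 40.6% lay lower and 36.6% higher at 24 h without overlap between the groups. Rps15a followed at -0.90 ± 0.08.

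The other stalk genes also fell, Rplp2 by 0.79 and Rplp0 by 0.45 on the log2 scale. Rplp0, which anchors the stalk, was 2069 and 2109 CPM unstimulated and 1457 and 1610 at 24 h. Rpsa, a small-subunit protein also known as a laminin receptor, fell by 0.34, and Rps6, the member that S6 kinases phosphorylate, by 0.28. Rpl11 and Rpl5, which with 5S ribosomal RNA bind MDM2 when ribosome assembly is disturbed, had values of -0.19 (called) and -0.18 (adjusted p = 0.087). Of the 31 small-subunit members other than Rps27l 24 fell and 3 rose, and of the 43 large-subunit members outside the stalk and the variants 27 fell and 5 rose.

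Rises were led by Rps27l at 0.71 ± 0.29, Rps16 at 0.71 ± 0.08, Rps26 at 0.64 ± 0.08 and Rpl28 at 0.63 ± 0.09. Rps16, a small-subunit protein, was 378.1 and 378.4 CPM unstimulated and 634 and 604 at 24 h, with no overlap. Rps26, near the messenger RNA exit of the small subunit, went from 359 and 389 to 601.5 and 568 CPM. Rpl28 went from 339 and 367 to 563 and 527 CPM. The share of both directions turned on the scaling. With total counts and no TMM factors the median of all genes rose by 0.31, and 23 members were higher and 16 lower, 59.0% higher among those called against 15.6% with TMM. Values relative to the median of all genes were therefore close in the 2 scalings, -0.31 against -0.02 and 0.00 against 0.29. With TMM factors from other protein-coding genes 10 were higher and 55 lower.

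At 72 h 50 members were lower and 9 higher than in unstimulated cells (50.5% of all genes called, 23.5% higher and 27.0% lower), with a median of -0.33. Of the 54 lower at 24 h 48 were also lower at 72 h, 88.9% and 96.0% of the lists at 24 h and 72 h, but both comparisons use the same unstimulated libraries. Rps27 was the furthest below at -1.56 ± 0.14, then Rpl35a at -1.52 ± 0.12, Rplp1 at -1.19 ± 0.09 and Rps15a at -0.93 ± 0.08. Highest were Rps27l at 1.00 ± 0.29, Rpl28 at 0.93 ± 0.09, Rps16 at 0.76 ± 0.08 and Rps26 at 0.75 ± 0.08. With total counts 38 were lower and 16 higher, and the median of all genes moved by 0.15. The B cell and myeloid markers, mitochondrial ribosomal RNA and Xist moved with both comparisons. Their part in these results was not tested, and they cannot be told apart from stimulation here.

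The levels of most fallers may also rest on the division of reads between near-identical genes. In 74 of the 81 members the estimates were mostly fractional, and 51 of these fell at 24 h in WT, with a median of -0.32 over the 74. Of the 7 members with mostly whole-number estimates 3 fell and 2 rose, with a median of -0.18. Of all genes 27.2% fell and 24.2% rose in that comparison. Rps27 had no whole-number estimate in any library, and Rps27rt, a single-exon copy outside the members, was 64.0 and 65.7 CPM unstimulated and 3.99 to 9.42 in the stimulated libraries. Rps27 itself went from 1242 ± 10.8 to 486 ± 13.6 CPM (SD, n = 2) from unstimulated to 24 h in WT. The part of the division of reads in its fall, or in that of the other members, was not tested. Over 274 annotated ribosomal protein pseudogenes, counts came to 2.26 and 2.27% of the members' sum in unstimulated libraries and 1.17 to 1.41% in stimulated ones. Rpl28 overlaps Ube2s on the opposite strand, which averaged 125 CPM. The library kit marks strand, but the strand setting of the counting is not given in the sources used here.

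Between 24 h and 72 h the set hardly moved in WT cells. One member rose and 2 fell, against 29.5% of all genes called, 15.5% higher and 14.0% lower, with a median of 0.00. Rpl28 rose by 0.31 ± 0.09, and Rpl37a, a large-subunit zinc-finger protein, fell by 0.27 ± 0.09, from 512 and 492 to 411 and 422 CPM. Rpl7l1 fell furthest, from 115 and 95 to 56.0 and 44.1 CPM (-1.06 ± 0.19, adjusted p = 9.4e-05). With total counts 24 were lower and none higher, while the median of all genes moved by -0.16. RLE size factors gave 2 in each direction. Without WT number 4 at 72 h 1 was called. B cell markers summed to 212 and 337 CPM at 24 h and 615 to 628 at 72 h, and their part was not tested.

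With TMM scaling, the lists of genes around the ribosome were called higher more often than lower at 24 h in WT, unlike its protein genes. Of all genes 24.2% were called higher in that comparison and 27.2% lower. The larger share of other abundant genes that rose, given above, also stands beside these counts. The contrast with the protein genes depended on the scaling, since with total counts 23 of them were higher and 16 lower. Ribosome biogenesis factors, which process ribosomal RNA and assemble the subunits in the nucleolus, were called higher in 45 of 52 and lower in 1 at 24 h in WT, with a median of 0.96. Ncl, the nucleolar protein nucleolin, rose from 173 and 185 to 2452 and 1746 CPM (3.55 ± 0.24), and Nop14 and Gar1 rose by 1.58 and 2.74. From 24 h to 72 h 45 of the 52 were lower and 1 higher, with a median of -1.23, led by Mdn1 at -2.05 ± 0.24. Of all genes 14.0% were lower between these times and 15.5% higher. Translation factors rose in 26 of 40 and fell in 2 at 24 h against unstimulated cells, with Pabpc1, the cytoplasmic poly(A)-binding protein, at 2.84 ± 0.10. Mitochondrial ribosomal protein genes rose in 33 of 78 and fell in 3. Among ribosomal protein genes that the naming rule misses, Rack1 fell, at -0.81 ± 0.08, and Fau had a value of -0.09 ± 0.11 and was not called. Among 23 regulators 11 rose, including Myc at 2.28 ± 0.29 and Larp1 at 2.18 ± 0.20, and 3 fell.

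**Figure D3:**
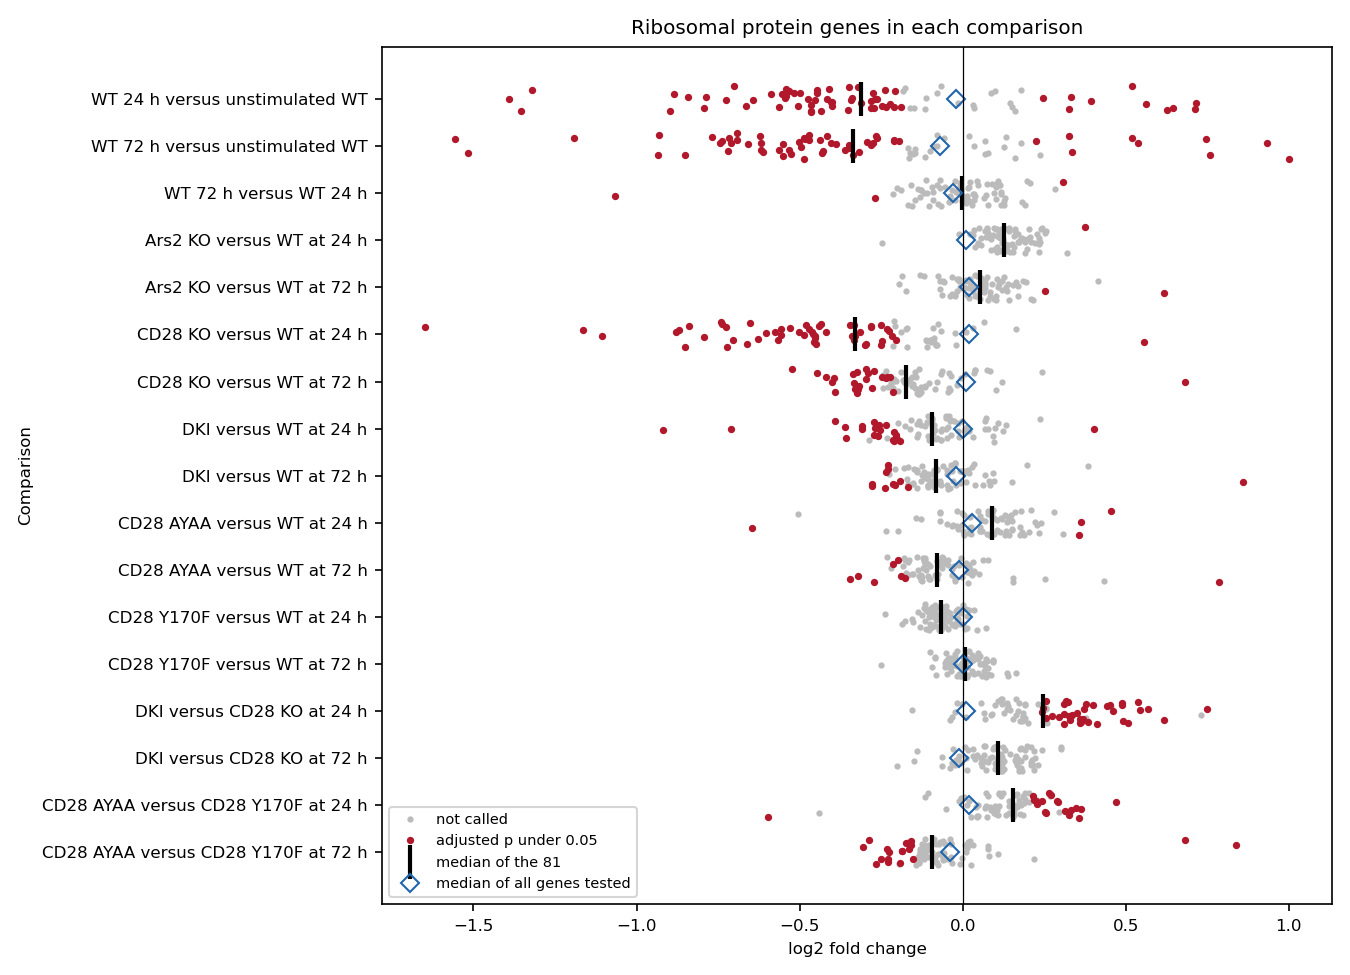
log2 fold change (x axis) of the 81 genes in each of 17 comparisons (y axis); red points have an adjusted p under 0.05 and grey points do not, black bars are the members' medians and open diamonds the medians of all genes tested. The members' median is furthest below that of all genes in the comparisons with unstimulated cells (-0.31 and -0.33) and in CD28 KO against WT at 24 h (-0.33).

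The question of how the set depends on CD28 was addressed with the libraries labelled CD28 KO, first at 24 h against WT. Of the members 53 were lower and 1 higher, with a median of -0.33, while 43.3% of all genes were called, 18.6% higher and 24.7% lower, with a median of 0.02. Of the 2008 other abundant genes 43.6% were lower and 26.5% higher. Rps2, a small-subunit protein near the messenger RNA entry, was 1413 and 1442 CPM in WT and 600.2 and 725 in the labelled KO (-1.11 ± 0.10, adjusted p = 1e-08). Its levels in the labelled KO were also below the 1120 and 1155 CPM of unstimulated cells. Rpl7a, a large-subunit protein, was 892 and 836 CPM in WT and 435 and 505 in the labelled KO (-0.88 ± 0.09). Rps27l at -1.65 ± 0.31 and Rpl7l1 at -1.16 ± 0.19 were lower still, and are described with the variants.

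Rpl28 and Rps26 had risen in WT cells and were lower in the labelled KO, in comparisons that share the WT libraries. Rpl28 was 314 and 344 CPM there, near the 339 and 367 of unstimulated cells, and Rps26 336 and 364, near 359 and 389. This nearness depends on the scaling. The TMM factors were 1.109 and 1.083 in the labelled KO at 24 h and 0.859 and 0.826 in unstimulated cells. Rps16 had also risen in WT, and its value here was -0.11 (adjusted p = 0.27), with 548 and 601 CPM. Rps27, which had fallen in WT, was the one member higher in the labelled KO, at 671 and 758 CPM against 476 and 495 (0.56 ± 0.14, adjusted p = 0.002). Rplp0 at -0.46 ± 0.09 and Rpsa at -0.56 ± 0.08 were lower, whereas Rplp1 and Rplp2 had values of -0.02 and -0.11 and were not called. Rps6 was lower by 0.34 and Rpl11 by 0.45 on the log2 scale, and Rpl5 at -0.21 was not called (adjusted p = 0.055). Of the 43 other large-subunit members 30 were lower, and of the 31 small-subunit members 18.

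Biogenesis factors were lower in 45 of 52 and higher in none, with Npm1, nucleophosmin, at -1.82 ± 0.19 and Ncl at -1.88 ± 0.23. Of all genes 24.7% were lower in this comparison and 18.6% higher. Translation factors were lower in 38 of 40 and higher in 2, and mitochondrial ribosomal proteins lower in 70 of 78. Myc, a transcription factor known to act on ribosome genes, was 74.0 and 92.8 CPM against 273 and 241 in WT. With TMM factors from the other protein-coding genes 41 members were lower and 2 higher, and the median of all genes moved by 0.10. The comparison with WT number 1 alone, which leaves out the shallow library, had 49 lower and 1 higher with a median of -0.36. B cell markers summed to 357 and 480 CPM in the labelled KO and 212 and 337 in WT, and 8 of 12 were called higher. Their part was not tested.

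At 72 h 24 members were lower in the labelled KO and 1 higher, with a median of -0.17. Of all genes 20.0% were called, 8.57% higher and 11.5% lower. Of the 53 lower at 24 h 22 were also lower here, 41.5% of that list and 91.7% of the 24. Rps2 was 1142 and 1125 CPM against 1586 and 1671 in WT (-0.52 ± 0.10). Rplp0 was 1250.0 and 1305 against 1640.0 and 1841 (-0.45 ± 0.09), and Rpsa 1425 and 1497 against 1913 and 1990.0 (-0.42 ± 0.08). Rpl28 was lower by 0.40. In all 4 the groups did not overlap, and of all genes 28.8% lay lower and 29.7% higher without overlap. Rpl7l1 was higher at 0.68 ± 0.19 (adjusted p = 0.011), with 84.3 and 77 CPM against 56.0 and 44.1. Biogenesis factors went the same way as Rpl7l1 and not as the set, higher in 38 of 52 and lower in 1 with a median of 0.96. The count of members moved from 13 to 16 when any 1 of the 4 libraries was left out, and was 14 lower and none higher against WT number 1 alone. With total counts it was 8 lower and 1 higher. NK cell markers summed to 332 and 419 CPM in the labelled KO and 69.4 and 123 in WT, B cell markers to 203 and 239 against 615 and 628, and 11 of 12 T cell markers were called lower. Their part was not tested.

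The change of the difference between 24 h and 72 h was tested directly. Relative to WT, 19 members rose more in the labelled KO from 24 h to 72 h and none less, while 35.3% of all genes were called, 20.5% higher and 14.7% lower. Rpl7l1 led at 1.85 ± 0.26, then Rps27l at 1.73 ± 0.42, Rpl36al at 0.77 ± 0.19 and Rpl7a at 0.67 ± 0.13, and Rps2 had 0.58 ± 0.14. Rplp0 and Rpsa had 0.01 ± 0.12 and 0.14 ± 0.11, neither called. The count was 9 without WT number 1 at 24 h and 12 without number 1 of the labelled KO at 24 h.

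**Figure D4:**
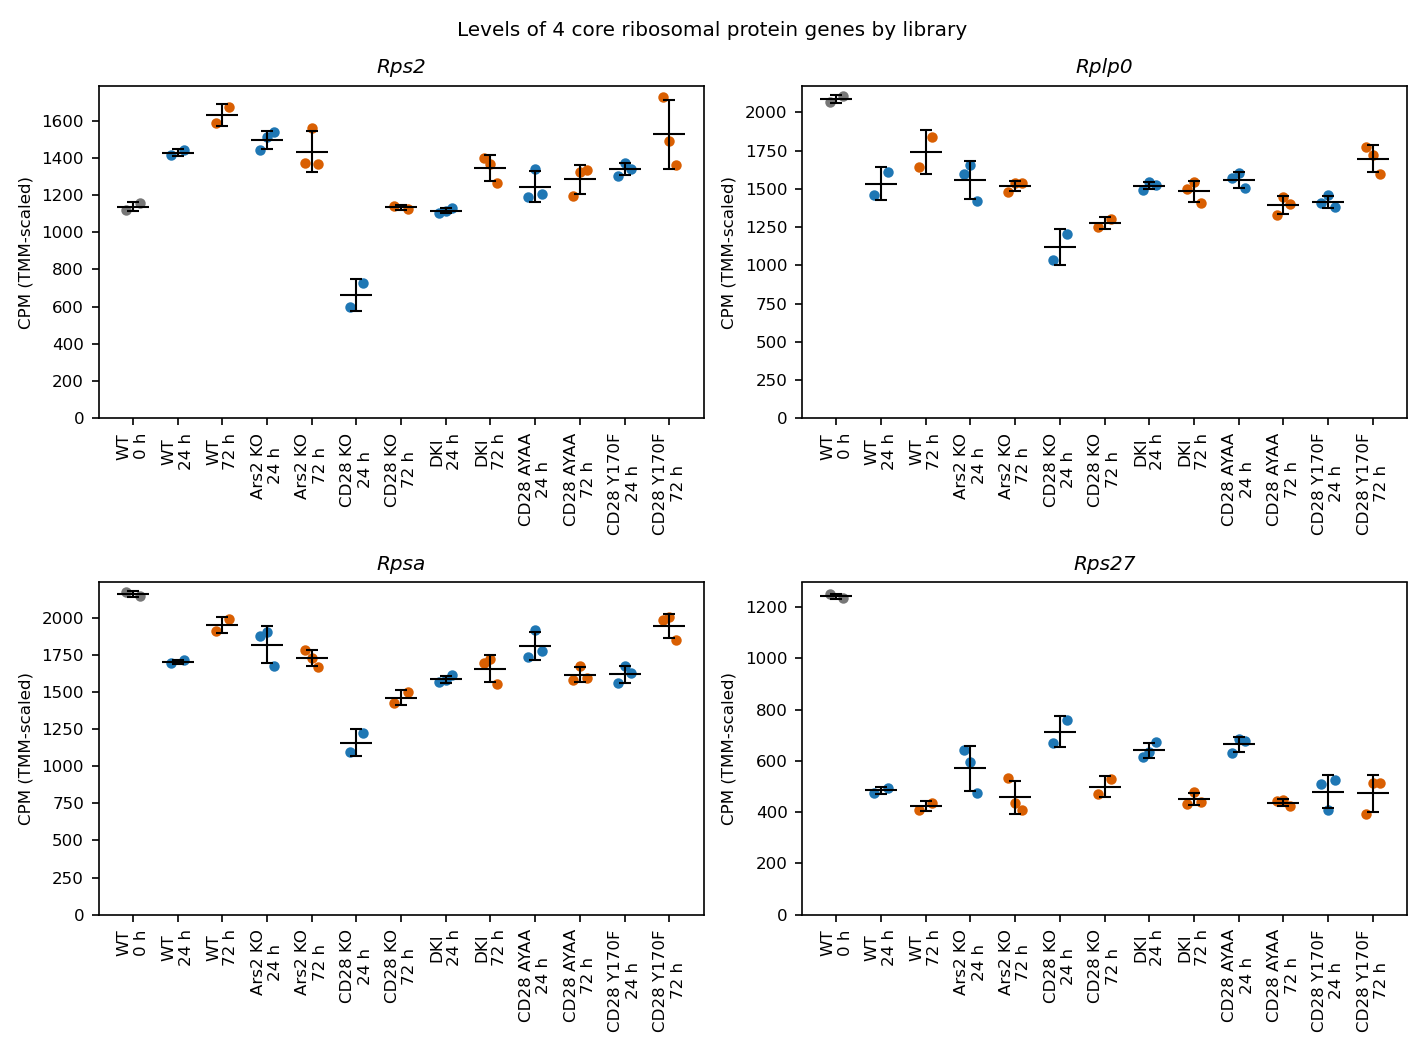
TMM-scaled CPM (y axis, from 0) of Rps2, Rplp0, Rpsa and Rps27 in each library by group (x axis); points are libraries (grey unstimulated, blue 24 h, orange 72 h), bars the mean and SD. Rps2, Rplp0 and Rpsa are lowest in CD28 KO at 24 h (600.2 and 725 CPM for Rps2), and Rps27 is at 1235 to 1250.0 CPM unstimulated and at most 758 in any other library.

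DKI was compared with WT and with the labelled CD28 KO. At 24 h 21 members were lower and 1 higher than in WT, with a median of -0.09. Of all genes 26.0% were called, 10.3% higher and 15.8% lower. Rps27l at -0.92 ± 0.27, Rpl7l1 at -0.71 ± 0.17, Rpl7a at -0.39 ± 0.08 and Rpl36al at -0.36 ± 0.12 were furthest below. Rps2 was 1101 to 1129 CPM in the 3 DKI libraries and 1413 and 1442 in WT (-0.36 ± 0.09), so the groups did not overlap. Of all genes 28.2% lay lower and 25.7% higher in DKI without overlap. Rps27 was higher, at 617 to 675 CPM (0.40 ± 0.13, adjusted p = 0.022). Against WT number 4 alone, the one of matched depth, no member was called in either direction (6 at an unadjusted p under 0.05), and the median was -0.03. Values there were 0.42 ± 0.17 for Rps27, -0.30 ± 0.10 for Rpl7a, -0.28 ± 0.16 for Rpl36al, -0.52 ± 0.21 for Rpl7l1 and -0.65 ± 0.34 for Rps27l, the same directions with larger SEs, since WT then has 1 library. B cell markers summed to 197 to 212 CPM in DKI and 212 to 337 in WT, and NK markers to 55.5 to 67.4 and 91.5 to 113. Their part was not tested. Without DKI number 1 or 3 10 were called. TMM factors from other protein-coding genes gave 10 lower and 2 higher.

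At 72 h 10 members were lower in DKI and 1 higher than in WT (23.4% of all genes called, 10.3% higher and 13.1% lower), with a median of -0.08. In DKI B cell markers summed to 190 to 209 CPM there and in WT to 615 to 628, while NK markers came to 280 to 316 and 69.4 to 123. The part of either was not tested. Rps2 and Rps12 were lower by 0.28, Rpl28 by 0.24 and Rpsa by 0.24, and Rpl7l1 was higher at 0.86 ± 0.17. Against WT number 4 alone 3 were lower and 1 higher, Rpl7l1 at 1.04 ± 0.23 among them. With total counts 3 were higher and none lower. Leaving out DKI number 3 left 2, and either WT library 4. Of the 21 lower at 24 h 6 were lower again, 28.6% of the first list. Relative to WT, Rpl7l1, Rps27l and Rpl36al rose more from 24 h to 72 h, by 1.57 ± 0.24, 1.30 ± 0.39 and 0.56 ± 0.17, and no other member was called (32.5% of all genes, 17.7% higher and 14.7% lower). Without WT number 1 at 24 h, or number 4 at 72 h, 1 member was called, and without DKI number 3 at 72 h 5.

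Against the labelled CD28 KO at 24 h 36 members were higher in DKI and none lower, with a median of 0.25, where 9.06% of all genes were called, 6.3% higher and 2.76% lower. Rps2 was 1101 to 1129 CPM against 600.2 and 725 (0.75 ± 0.09, adjusted p = 1.1e-05). Rpl15 had 0.62 ± 0.08, Rps12 0.57 ± 0.09 and Rpl41, the smallest ribosomal protein, 0.54 ± 0.10. Rplp0 had 0.44 ± 0.08 and Rpsa 0.45 ± 0.07, while Rplp1 (0.09) and Rps27 (-0.15) were not called. Without number 1 of the labelled KO, the library of the lowest summed level, 8 were higher, and the other libraries left out in turn gave 29 to 36. At 72 h no member was called (0.454% of all genes, 0.219% higher and 0.235% lower), 21 had an unadjusted p under 0.05, DESeq2 called 8 and limma-voom none. Depth, all DKI libraries being under 12 M counts, moved with both comparisons and cannot be told apart from the genotype. B cell markers summed to 197 to 212 CPM in DKI and 357 to 480 in the labelled KO at 24 h, and their part was not tested.

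CD28 AYAA and CD28 Y170F carry changes in separate motifs of the same tail. At 24 h Y170F had no member called against WT (0.0547% of all genes, 0.0164% higher and 0.0383% lower), with 3 at an unadjusted p under 0.05 and none by DESeq2 or limma-voom. The median was -0.07, and the values ran from -0.24 ± 0.11 for Rpl35a to 0.07 ± 0.08 for Rplp1. At 72 h it was again none (0.0273% of all genes, 0.0109% higher and 0.0164% lower), with none at an unadjusted p under 0.05 or by DESeq2 or limma-voom, and a median of 0.01. Rps2 was 1304 to 1370.0 CPM at 24 h and 1361 to 1728 at 72 h, overlapping WT at 72 h. A p that misses the threshold does not show that the levels were alike.

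AYAA at 24 h had 3 members higher and 1 lower than WT (3.61% of all genes called, 1.61% higher and 2.0% lower), with a median of 0.09. Rps27 was 632 to 686 CPM against 476 and 495 in WT (0.45 ± 0.13, adjusted p = 0.047), and did not overlap it. Of all genes 20.7% lay higher and 20.0% lower in AYAA without overlap. Rpl36a had 263 to 305 CPM against 208 and 243 (0.36 ± 0.10), and Rps21, a small-subunit protein, 311 to 334.5 against 253 ± 4.08 (SD, n = 2) (0.36 ± 0.10). Rpl7l1 was lower at -0.65 ± 0.17. Each library left out in turn left 0 or 1 of these 4 calls, and against WT number 1 alone only Rpl7l1 was called. With total counts 1 was higher and 1 lower. At 72 h 7 were lower and 1 higher (21.7% of all genes called, 10.4% higher and 11.3% lower), with a median of -0.08. Rps2 was lower by 0.34 on the log2 scale, Rplp0 by 0.32, Rpsa by 0.27 and Rpl29 by 0.21, and Rpl7l1 was higher at 0.79 ± 0.17. Without WT number 4 at 72 h 1 was called, 4 without AYAA number 1 and 5 without AYAA number 2 or 3. Against WT number 1 alone 1 was lower, and with total counts 3 were lower and 2 higher. The NK markers summed to 264 to 391 CPM in AYAA against 69.4 and 123 in WT at 72 h, and the B cell markers to 226 to 244 against 615 and 628. Their part was not tested.

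Set against each other at 24 h, AYAA had 18 members higher than Y170F and 1 lower (4.35% of all genes called, 2.17% higher and 2.18% lower), with a median of 0.15. Rps27 was 632 to 686 CPM in AYAA and 408 to 524 in Y170F (0.47 ± 0.11). Rps29 and Rpl39 had 0.36 each, both ± 0.08 or less, and Rps21 0.35 ± 0.09. Rpl7l1 was lower at -0.60 ± 0.15. At 72 h the direction of most calls was the opposite, 16 lower and 2 higher (36.8% of all genes called, 17.6% higher and 19.2% lower), with a median of -0.09. The share of members called lower was near that of all genes, and the share called in either direction was below it. Rpl29 was lower by 0.31, Rplp0 by 0.29 and Rpsa by 0.27, and Rpl7l1 at 0.84 ± 0.15 and Rps27l at 0.68 ± 0.24 were higher. At 72 h B cell markers summed to 226 to 244 CPM in AYAA and 748 to 945 in Y170F, and NK markers to 264 to 391 and 59.7 to 121. The part of these markers was not tested. The count at 24 h was 1 without AYAA number 2 or Y170F number 2, 7, 5 and 6 without AYAA number 1, AYAA number 3 and Y170F number 1, and 13 without Y170F number 3. At 72 h it was 6 without AYAA number 1 or Y170F number 2. With total counts at 72 h 5 were lower and 3 higher.

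The change from 24 h to 72 h differed between AYAA and WT for 10 members (24.4% of all genes called, 12.3% higher and 12.1% lower). Of these 9 rose less or fell in AYAA, with Rpsa at -0.36 ± 0.10, Rpl17 at -0.35 ± 0.11, Rplp0 at -0.35 ± 0.11 and Rps18 at -0.34 ± 0.11. Rpl7l1 went the other way at 1.43 ± 0.24. With total counts 3 were higher and 1 lower. The count was 5 without AYAA number 2 at 24 h or WT number 1 at 24 h, 6 without AYAA number 3 at 24 h, 4 without WT number 4 at 24 h, and 3 without AYAA number 1 or WT number 4 at 72 h.

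Ars2 KO had 1 member called against WT at 24 h (0.399% of all genes, 0.23% higher and 0.169% lower). Rpl10a, a large-subunit protein, was 747 to 804 CPM against 572 and 624 (0.38 ± 0.07, adjusted p = 0.0078) and did not overlap. Of the 81 members 79 had values above 0, with a median of 0.13, and the ranges of 48 lay above WT without overlap, against 12.6% of all genes. Against WT number 1 alone the median was 0.06, 14 members had values below 0 and none was called. At 72 h Rpl10a at 0.25 ± 0.07 and Rpl7l1 at 0.62 ± 0.17 were higher and none lower (12.9% of all genes called, 6.6% higher and 6.27% lower). Rpl10a was 704 to 761 CPM there, above both WT libraries at 594 and 626. Neither was called against WT number 1 alone, which also drops the call at 24 h. Without Ars2 KO number 2 at 72 h 1 was called, and without number 3 4. Biogenesis factors were higher in 37 of 52 at 72 h and lower in none. At that time B cell markers summed to 167 to 534 CPM in Ars2 KO and 615 to 628 in WT, and NK markers to 141 to 305 and 69.4 to 123. Their part was not tested.

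The 4 variant members are given library by library. Within the summed level, the ratio of the highest to the lowest share over the stimulated groups ranked Rps27l at 1 and Rpl7l1 at 2 among the 81, Rpl36al at 5 (1.65) and Rpl22l1 at 16 (1.42). Rpl7l1 is related to Rpl7 and to a yeast factor of ribosome assembly. It was 70.5 and 71.9 CPM unstimulated, 115 and 95 in WT at 24 h and 56.0 and 44.1 at 72 h. Y170F had the same order, with 95.2 to 107 CPM at 24 h and 39.3 to 64.3 at 72 h. In the labelled CD28 KO it went from 44.5 and 49.3 to 84.3 and 77 CPM, in DKI from 63.9 to 64.9 up to 84.5 to 96.2, and in AYAA from 64.8 to 68.5 up to 83.9 to 91.7. So it was higher at 24 h than at 72 h in WT and Y170F and lower in these 3, without overlap between the times in any of the 5. In Ars2 KO it was 79.6 to 102 and 58.3 to 95.7 CPM, which overlapped. At 24 h the mean order was WT, Y170F, Ars2 KO, AYAA, DKI and the labelled CD28 KO, in which WT and Y170F, Y170F and Ars2 KO, and AYAA and DKI overlapped as neighbours. At 72 h DKI was highest and Y170F lowest. The biogenesis list was higher than WT at 72 h in 45 of 52 genes in both DKI and AYAA, where 10.3% and 10.4% of all genes were called higher. At 24 h it was lower in 33 in DKI and 1 in AYAA, where 15.8% and 2.0% of all genes were called lower.

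Rps27l is a paralog of Rps27 known as a target of p53. It was 26.1 and 28.8 CPM unstimulated and 51.0 and 38.6 in WT at 24 h. In the labelled CD28 KO at 24 h it was 11.8 and 16.9 CPM, the lowest of all groups, and 63.9 and 52.3 at 72 h. DKI went from 20.2 to 25.9 CPM up to 67.7 to 76.9, and AYAA from 31.1 to 32.4 up to 70.5 to 77.7. At 72 h WT had 66.4 and 42.5 CPM and Y170F 29.2 to 74.6, the range of Y170F overlapping every other group, with number 1 above the other 2, and that of WT overlapping all but DKI and AYAA. Rps27 and Rps27l were called in opposite directions in 4 comparisons: WT at 24 h and at 72 h against unstimulated cells, and the labelled KO and DKI against WT at 24 h. These share WT libraries.

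Rpl36al, a single-exon paralog of Rpl36a, and Rpl22l1, a paralog of Rpl22, which αβ T cell development needs, varied less. Rpl36al was 139 and 143 CPM unstimulated, 161 and 152 in WT at 24 h and 86.1 and 102 in the labelled KO at 24 h (-0.74 ± 0.14), and 117 to 202 in the other stimulated libraries. Rpl36a was lower too in that comparison, by 0.34. Rpl22l1 was 116 and 122 CPM unstimulated, 112 and 108 in WT at 24 h, and 56.6 and 70.2 in the labelled KO (-0.79 ± 0.13). Rpl22 was lower there by 0.43. All 4 variants were therefore lower in the labelled KO at 24 h, at a median of -0.98 over the 4 and -0.30 over the other 77 members.

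**Figure D5:**
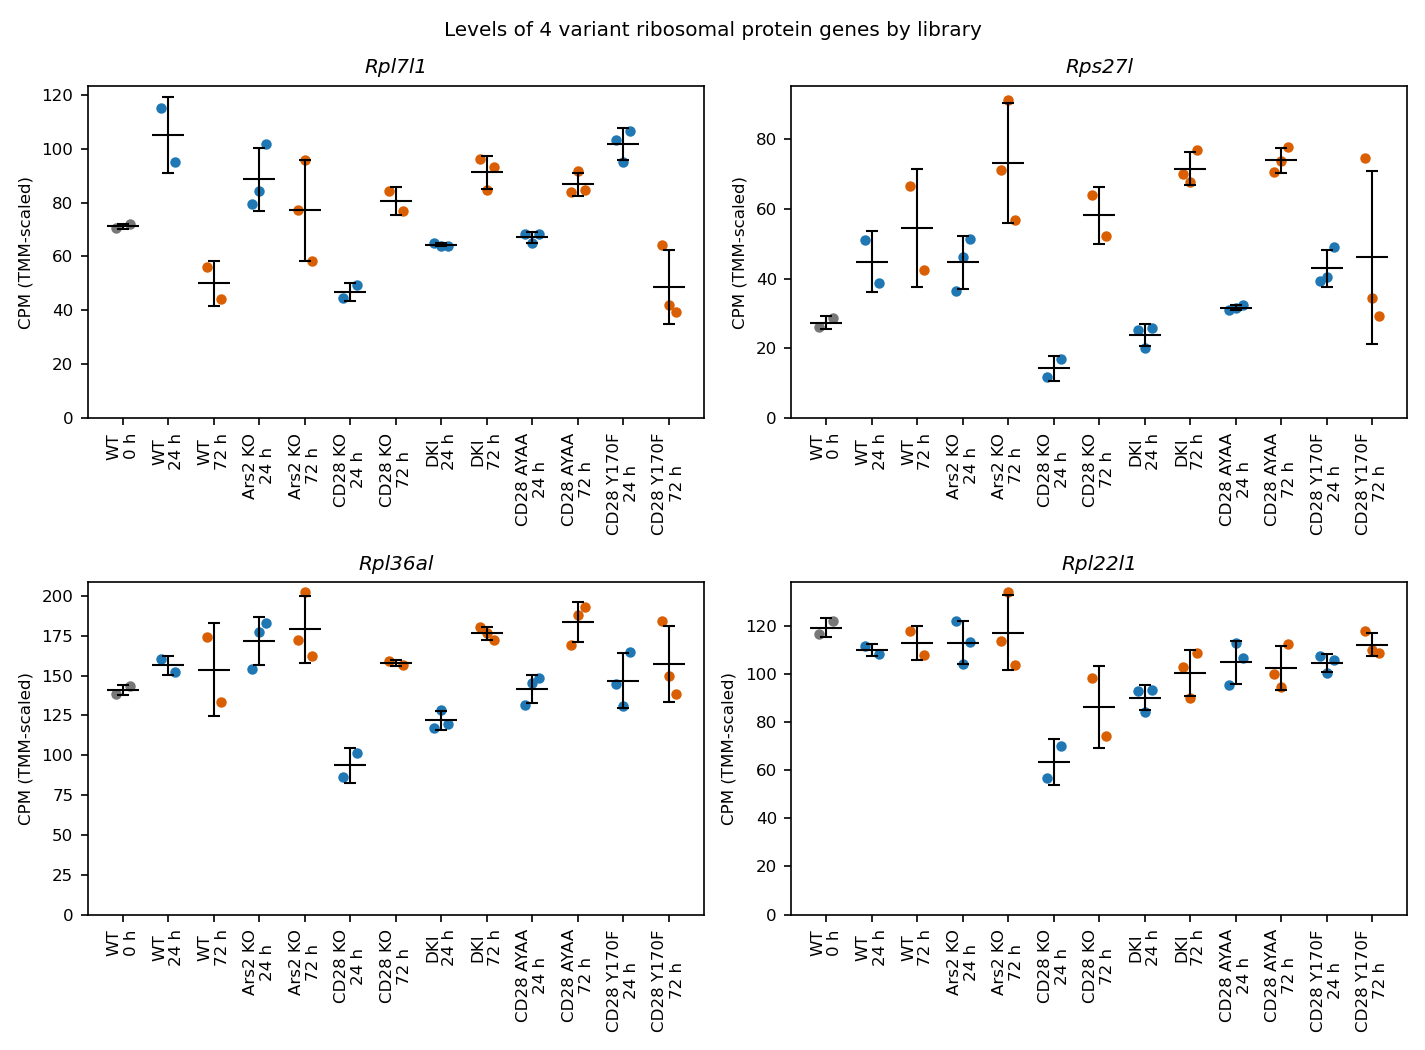
TMM-scaled CPM (y axis, from 0) of Rpl7l1, Rps27l, Rpl36al and Rpl22l1 in each library by group (x axis); points are libraries (grey unstimulated, blue 24 h, orange 72 h), bars the mean and SD. Rpl7l1 is higher at 24 h than at 72 h in WT and CD28 Y170F and lower in CD28 KO, DKI and CD28 AYAA, and all 4 genes are lowest in CD28 KO at 24 h except Rpl7l1, whose lowest library is in CD28 Y170F at 72 h (39.3 CPM).

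The introns of 30 members hold 58 annotated small nucleolar RNA genes, which guide the modification of ribosomal RNA. At 24 h in WT 19 of these 30 hosts fell and 3 rose, with a median of -0.27, beside 35 and 7 of the 51 other members at -0.40. Of all genes 27.2% were lower in that comparison and 24.2% higher. The difference between hosts and other members was not tested. In the labelled CD28 KO at 24 h against WT 18 hosts and 35 others were lower, with medians of -0.24 and -0.34, where 24.7% of all genes were lower and 18.6% higher. Non-coding host genes of such RNAs, a list of 13, were lower in 9 in that comparison and higher in none, with Zfas1 at -1.60 ± 0.14 and Gas5 at -1.03 ± 0.15.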

How the data were processed

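The values are expected counts per gene, estimates that need not be whole, which the authors deposited as 1 table of 34 libraries. Per the labels' protocols, RNA depleted of ribosomal RNA was sequenced in pairs from a kit that marks strand. The submitters' processing notes name bcl2fastq 2.20, FastQC, STAR, RSEM, limma and the builds mm10 and GRCm38. The annotation release is not given in the sources used here. GENCODE M21 matched 99.2% of identifiers. For CD28 KO at 72 h, titles and columns carry different numbers, so its 2 columns stand for the group without a sample number.

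After rounding, the expected counts entered edgeR 4.0.16 under R 4.3.3 (quasi-likelihood F test, TMM scaling, default filter, 1 mean per group over all 34 libraries). This left 18292 genes, over which p-values were adjusted by Benjamini-Hochberg, with a call at an adjusted p under 0.05. The SE of a log2 fold change is its size over the square root of F. p-values rest on the spread between libraries within groups. The model pools that spread over all 34 libraries and across genes, so it is not that of the compared groups alone. Alternatives were other scalings, DESeq2 1.42.0, limma-voom 3.58.1, no filter, fits restricted to the groups in question, a replicate block, and each library left out in turn. Plots were made with matplotlib 3.10.9.

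Members, lists and comparisons were chosen with earlier results of these data known. Named members are the stalk genes, Rpsa, Rps6, Rpl5, Rpl11, the paralogs and variants, up to 4 called members per direction and comparison by size of change, and the extremes of level per length. Of other lists, up to 4 genes with the smallest p are named. Rps10 among the printed start sites, and leading members of one comparison given again in another (such as Rps2, Rps16, Rps26, Rpl28 and Rpl35a), were picked after their values were seen. Deviations of same-numbered CD28 AYAA and CD28 Y170F samples at 24 h correlated at 0.28, 0.33 and 0.39, a reading of pairing from the data and not the labels. Between WT at 72 h and 24 h the value was 0.29 for each of the 2 shared numbers. Between DKI and the labelled CD28 KO at 24 h the values were 0 and -0.02.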

Additional observations from a re-analysis of the deposited data

Results flagged for a closer look

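A difference from WT that itself changed between 24 h and 72 h was found for 19 members in the libraries labelled CD28 KO, 3 in DKI and 10 in CD28 AYAA, of 81. Of all genes tested 35.3%, 32.5% and 24.4% were called in these tests, a larger share than of the members in each. In each case the test was of the change itself, as an interaction in edgeR. In the labelled CD28 KO, the log2 change beyond that of WT was 1.85 for Rpl7l1, 1.73 for Rps27l, 0.77 for Rpl36al and 0.67 for Rpl7a. In DKI it was 1.57 for Rpl7l1, 1.30 for Rps27l and 0.56 for Rpl36al. In CD28 AYAA it was 1.43 for Rpl7l1, -0.36 for Rpsa, -0.35 for Rpl17, -0.35 for Rplp0 and -0.34 for Rps18. The 3 tests share the WT libraries.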

How the results depend on the processing

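Counts are of members called in either direction, genotypes being against WT and pairs of counts being for 24 h and 72 h unless said otherwise. Total counts without factors gave 39 for WT at 24 h against unstimulated, 24 for WT at 72 h against 24 h, 4 for Ars2 KO, 9 for CD28 KO, 3 for DKI and 5 for CD28 AYAA at 72 h, 2 for CD28 AYAA at 24 h, 11 and 8 for CD28 AYAA against CD28 Y170F at 24 h and 72 h, and 9 and 4 for the changes from 24 h to 72 h in DKI and CD28 AYAA. With no filter there were 0 and 1 for Ars2 KO at 24 h and 72 h, 10 for CD28 KO at 72 h, 12 and 1 for DKI at 24 h and 72 h, 2 and 3 for CD28 AYAA, 19 for DKI against CD28 KO at 24 h, 4 and 5 for CD28 AYAA against CD28 Y170F, and 11 and 2 for the changes in CD28 KO and CD28 AYAA. DESeq2 gave 5 for WT at 72 h against 24 h, 5 and 4 for Ars2 KO, 40 for CD28 KO at 72 h, 8 for CD28 AYAA at 24 h, 8 for DKI against CD28 KO at 72 h, 30 for CD28 AYAA against CD28 Y170F at 24 h and 5 for the change in DKI. With only the groups compared there were 1 for WT at 72 h against 24 h, 0 and 0 for Ars2 KO, 35 and 2 for CD28 KO, 14 and 2 for DKI, 2 and 2 for CD28 AYAA, 10 for DKI against CD28 KO at 72 h, 2 for CD28 AYAA against CD28 Y170F at 72 h, and 9 and 5 for the changes in CD28 KO and CD28 AYAA. TMM factors from other protein-coding genes gave 12 for DKI at 24 h. RLE size factors and limma-voom kept every count within 1.5 times.

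The replicate block gave 0 and 1 for Ars2 KO, 18 for DKI at 72 h, 2 for CD28 AYAA at 24 h, and 22 and 20 for CD28 AYAA against CD28 Y170F, and moved no other count by over 1.5 times. Only these last share 3 numbers, and at 72 h their deviations correlated at 0.00, 0.06 and 0.16. For CD28 KO at 72 h, and for comparisons that use it, no paired analysis was possible because its columns carry no matched number.

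Leaving out 1 library gave 50 to 58 calls for WT at 24 h and 51 to 55 at 72 h against unstimulated, 1 to 3 between them, 0 to 1 and 0 to 4 for Ars2 KO, 38 to 56 and 13 to 16 for CD28 KO, 0 to 18 and 2 to 9 for DKI, 0 to 1 and 1 to 6 for CD28 AYAA, 0 and 0 to 1 for CD28 Y170F, 8 to 36 and 0 for DKI against CD28 KO, 1 to 13 and 6 to 15 for CD28 AYAA against CD28 Y170F, and 9 to 27, 1 to 5 and 3 to 12 for the changes in CD28 KO, DKI and CD28 AYAA. Where an arm kept 1 library, it is assumed to vary like the other groups. Of 78 named results none reversed under any alternative. They were picked as the largest called changes, which makes a reversal unlikely. With only the groups compared 23 of the 78 were weaker, with no filter 17, with total counts 11 and with RLE size factors 1. The replicate block weakened 7 of the 69 it could test. Over all single libraries left out, 103 of 424 checks of these results were weaker. With DESeq2 and limma-voom 0 were weaker. The cause of these shifts was not tested. Groups of 2 and 3 libraries limit the precision.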
